A study of Mus musculus with 8 samples.

Results

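Haemoglobin mRNA in a liver sample can come with the blood that the tissue held, and 6 erythroid genes were followed here as a readout of it in WT and N-LKO livers. They were taken by gene symbol, with no threshold on their values. Hba-a1 and Hba-a2 encode alpha-globin, Hbb-bs and Hbb-bt encode beta-globin, Alas2 encodes the erythroid form of 5-aminolevulinate synthase, and Slc4a1 encodes band 3, the anion exchanger of the red cell membrane. All 6 had a row among the 19642 genes of the count table, and 5 of them passed the filter on low counts that left 14214 genes for testing. The 4 globin genes varied together over a 20.5-fold range between livers, the highest liver of each genotype carried most of that spread, and no difference between genotypes passed the test. Across all livers Alas2 did not follow the globins, and Slc4a1 was hardly detected.

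RNA-seq had been run on livers of 4 WT and 4 N-LKO mice, 1 library per mouse, all on chow diet (CD). N-LKO mice lack NgBR, the protein of the Nus1 gene, in the liver, through loxP sites in Nus1 and a Cre driven by the albumin promoter on a C57BL6 background. That promoter is active in hepatocytes, so blood cells and other liver cells were not the target of the deletion. CD feeding lasted 8 weeks by the sample titles, which is also the duration in a legend on chow-fed livers, whereas the treatment field has 16 weeks. The age of the mice and whether the livers were flushed of blood before RNA extraction are not given in the sources used here for these samples. The labels number the livers as biological replicates and name no cohort, so each p-value measures the spread between these livers only.

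Mature red cells have no nucleus, but young red cells, the reticulocytes, keep globin mRNA for a time after they enter the blood. Adult haemoglobin joins alpha and beta chains in equal number, each holding a haem, and the chains come from separate gene clusters that developing red cells switch on together. Haem synthesis in these cells starts with Alas2, whereas hepatocytes start it with Alas1. In the fetus the liver is a main site of red cell production, which then moves to the bone marrow and, in the mouse, also the spleen. Hbb-bs and Hbb-bt are the adult beta-globin genes of the single haplotype, the one C57BL/6 mice carry. In bulk liver RNA, fewer blood cells and less globin RNA per cell cannot be told apart.

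Total counts ranged from 14688404 to 18585412 per liver. Hepatocyte mRNA dominated each library, with albumin (Alb) between 45845 and 71152 CPM, that is, counts normalised to library size. Nus1, the targeted gene (GRCm38 chromosome 10, 52417547 to 52440183), was at 82.0, 90.4, 90.5 and 89.7 CPM in WT 1 to 4 and at 33.3, 36.2, 38.7 and 38.7 CPM in N-LKO 1 to 4. Each N-LKO liver was thus below each WT liver, as its label has it. The log2 fold change was -1.26 (adjusted p = 3.06e-05, edgeR's quasi-likelihood test). WT 3 and N-LKO 2 stood apart from the rest of their groups in globin mRNA. The edgeR fits of the globins and Alas2, and the means of summed globin, are therefore also given without them, a choice made after seeing the data.

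The sequences just upstream of the globin genes and Alas2 are shown as a description of these genes. Whether they bear on the differences between these livers was not tested. Each is the stretch of 250 bases before the gene's start in RefSeq (GRCm38.p6), on the gene's own strand and from 5′ to 3′. The RefSeq table held 5 of the 6 genes. Capitals mark each match, on either strand, to the GATA motif (written AGATAA, or with a T first), to the CACCC box, to the CCAAT box and to a TATA box form (ATATAA).
Hba-a1 (chr11:32283422-32283671, plus strand): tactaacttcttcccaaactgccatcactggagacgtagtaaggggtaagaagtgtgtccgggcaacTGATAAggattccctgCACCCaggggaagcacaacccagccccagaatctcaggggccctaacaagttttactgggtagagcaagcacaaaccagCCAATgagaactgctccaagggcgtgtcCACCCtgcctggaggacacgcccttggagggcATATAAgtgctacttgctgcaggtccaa
Hbb-bs (chr7:103827929-103828178, minus strand): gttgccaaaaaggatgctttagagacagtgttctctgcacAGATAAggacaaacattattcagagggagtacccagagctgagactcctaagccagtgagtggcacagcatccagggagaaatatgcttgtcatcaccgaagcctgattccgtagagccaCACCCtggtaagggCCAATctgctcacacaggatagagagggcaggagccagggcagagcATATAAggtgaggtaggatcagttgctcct
Hbb-bt (chr7:103813924-103814173, minus strand): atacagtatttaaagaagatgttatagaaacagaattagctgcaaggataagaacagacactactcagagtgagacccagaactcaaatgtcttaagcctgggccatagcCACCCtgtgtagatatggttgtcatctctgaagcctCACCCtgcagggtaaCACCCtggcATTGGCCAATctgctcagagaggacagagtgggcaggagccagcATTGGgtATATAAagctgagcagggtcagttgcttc
Alas2 (chrX:150547167-150547416, plus strand): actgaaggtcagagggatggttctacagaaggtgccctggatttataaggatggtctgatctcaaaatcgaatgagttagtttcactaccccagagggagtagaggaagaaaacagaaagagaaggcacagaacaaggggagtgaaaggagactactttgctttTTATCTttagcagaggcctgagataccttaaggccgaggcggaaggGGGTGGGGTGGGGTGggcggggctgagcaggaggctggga

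The window of Hba-a2 (chr11:32296242-32296491, plus strand) is not printed because it shares an unbroken run of 247 bases with that of Hba-a1. Hbb-bs and Hbb-bt are much less alike upstream, with a longest shared run of 14 bases, and Hba-a1 and Hbb-bs share at most 9. GENCODE draws some gene models longer than RefSeq does, so the windows reach past its gene starts. In the windows of Hba-a1, Hbb-bs and Hbb-bt, ATATAA began 28, 30 and 29 bases before the RefSeq start, CCAAT on the gene's strand began 88, 76 and 75 bases before it, and a CACCC lay 90 bases or less before it. Hba-a1 and Hba-a2 also held TGATAA, and Hbb-bs held AGATAA 210 bases before its start, whereas the Hbb-bt window held neither. Hbb-bt held 3 CACCC and also 2 CCAAT on the opposite strand. The Alas2 window differed from those of the globins, with no match to a TATA or CCAAT box, an AGATAA on the opposite strand that began 86 bases before its start, and 3 CACCC side by side on that strand. Such short motifs are common. Among 32851 windows of that length in the RefSeq table, 16.6% held a form of the GATA motif, 52.0% a CACCC box, 33.8% a CCAAT box and 9.10% the TATA box form.

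Positions are those of the GRCm38 build, as the deposited coordinates and the GENCODE M21 annotation give them, and all 6 genes are protein coding. Hba-a1 is on chromosome 11 from 32283511 to 32284465 and Hba-a2 beside it from 32296489 to 32297298, both on the plus strand. Hbb-bs is on chromosome 7 from 103826534 to 103828096 and Hbb-bt from 103812524 to 103813996, both on the minus strand. Slc4a1 is also on chromosome 11, at 102348824 to 102366203 of the minus strand, with 20 exons, whereas each globin gene has 3. Alas2 is on chromosome X from 150547375 to 150570638 (plus strand), inside the span of Apex2, a DNA repair endonuclease gene annotated on the minus strand.

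Paired globin genes share much of their transcript sequence, which limits what can be said of a single copy. Of the stretches of 75 bases in the Hba-a2 transcript, 81.0% were also found in that of Hba-a1, and 62.2% in the reverse direction. For Hbb-bs in Hbb-bt the share was 64.3%, and for Hbb-bt in Hbb-bs 56.6%. None of the Hba-a1 stretches was found in Hbb-bs. The deposited counts are estimates and held decimals for each of these genes, but the sum of each pair was whole to within 0.03 counts in 8 of 8 livers. Reads that both copies could have given had thus been divided between them, and the pair sums are the firmer values. The sum of Alas2 and Apex2 was whole in 8 of 8 livers too. Of the 2403 exon bases of Alas2, 311 (12.9%) overlap Apex2 exons on the other strand, and whether strand was used in counting is not given in the sources used here.

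Of the alpha-globins, Hba-a2 was at 13.6, 34.6, 188.5 and 22.7 CPM in WT 1 to 4. In N-LKO 1 to 4 it was at 13.6, 92.0, 8.89 and 21.9 CPM. WT 3 and N-LKO 2 were far above the other 6 livers, and the other WT and N-LKO livers lay among each other. Hba-a1 was at 5.66, 18.3, 72.97 and 7.28 CPM in WT livers. It was at 6.01, 35.0, 2.65 and 7.74 CPM in N-LKO livers, with the same highest liver in each genotype and N-LKO 3 the lowest of all.

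Of the beta-globins, Hbb-bs was at 18.9, 47.3, 225.7 and 30.3 CPM in WT 1 to 4. In N-LKO 1 to 4 its levels were 17.2, 123.5, 12.5 and 30.1 CPM. As for alpha-globin, WT 3 and N-LKO 2 led and N-LKO 3 was lowest. Hbb-bt was at 2.51, 4.31, 30.9 and 3.42 CPM in WT livers and at 2.44, 15.6, 1.26 and 3.26 CPM in N-LKO livers. WT 4 and N-LKO 4 were within 1 CPM of each other for each globin gene, so the genotypes overlapped in the middle of the range too.

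**Figure D1:**
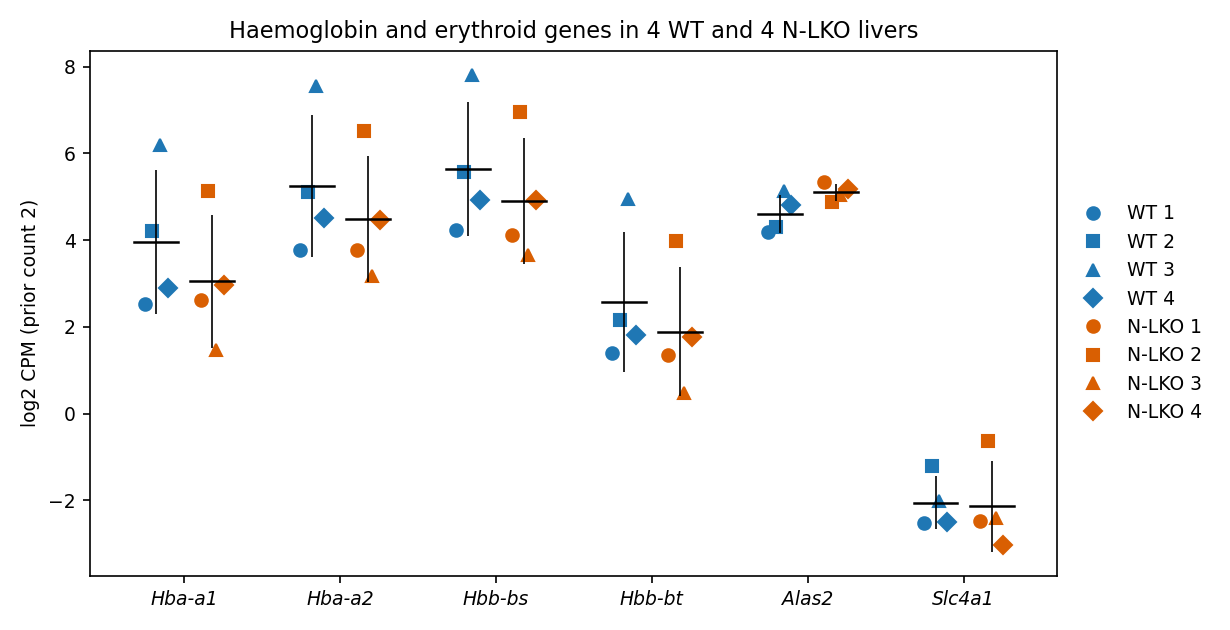
Level of each gene (log2 CPM, prior count 2) in each of 4 WT livers (blue) and 4 N-LKO livers (orange), with the group mean (horizontal line) and SD (vertical line). WT 3 and N-LKO 2 are the highest of their groups for each of the 4 globin genes, and for Alas2 the N-LKO 2 liver is the lowest of its group.

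Summed over the 4 genes, globin mRNA was at 40.7, 104.6, 518.1 and 63.7 CPM in WT 1 to 4. It was at 39.2, 266.1, 25.3 and 63.1 CPM in N-LKO 1 to 4. The highest liver was a WT and the lowest an N-LKO, with a median over the 8 of 63.4 CPM. WT 3 was 7.44-fold above the mean of the other 3 WT livers, and N-LKO 2 was 6.26-fold above the mean of the other 3 N-LKO livers. The mean was 181.8 ± 225.8 CPM for WT and 98.4 ± 112.9 CPM for N-LKO (SD, n = 4 each), so in both genotypes the SD exceeded the mean. Without WT 3 and N-LKO 2 the means were 69.6 and 42.5 CPM. These sums rest on 381 to 8172 counts per liver, or from 0.00259% to 0.0530% of a library.

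Alpha- and beta-globin mRNA kept close to one ratio across livers. The count of the alpha pair divided by that of the beta pair was 0.902, 1.03, 1.02 and 0.889 in WT 1 to 4 and 1.00, 0.913, 0.841 and 0.888 in N-LKO 1 to 4. This ratio moved over only a 1.22-fold range while the globin sum moved 20.5-fold, and on a log2 scale its SD over the 8 livers was 0.108 against 1.48 for the sum. The mean ratio was 0.959 ± 0.0737 for WT and 0.910 ± 0.0668 for N-LKO (SD, n = 4 each), a difference within the spread (exact two-sided permutation test, p = 0.314). Within pairs, Hba-a2 was 1.89 to 3.33 times Hba-a1 and Hbb-bs was 7.0 to 10.9 times Hbb-bt in counts, values that rest on how shared reads were divided.

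**Figure D2:**
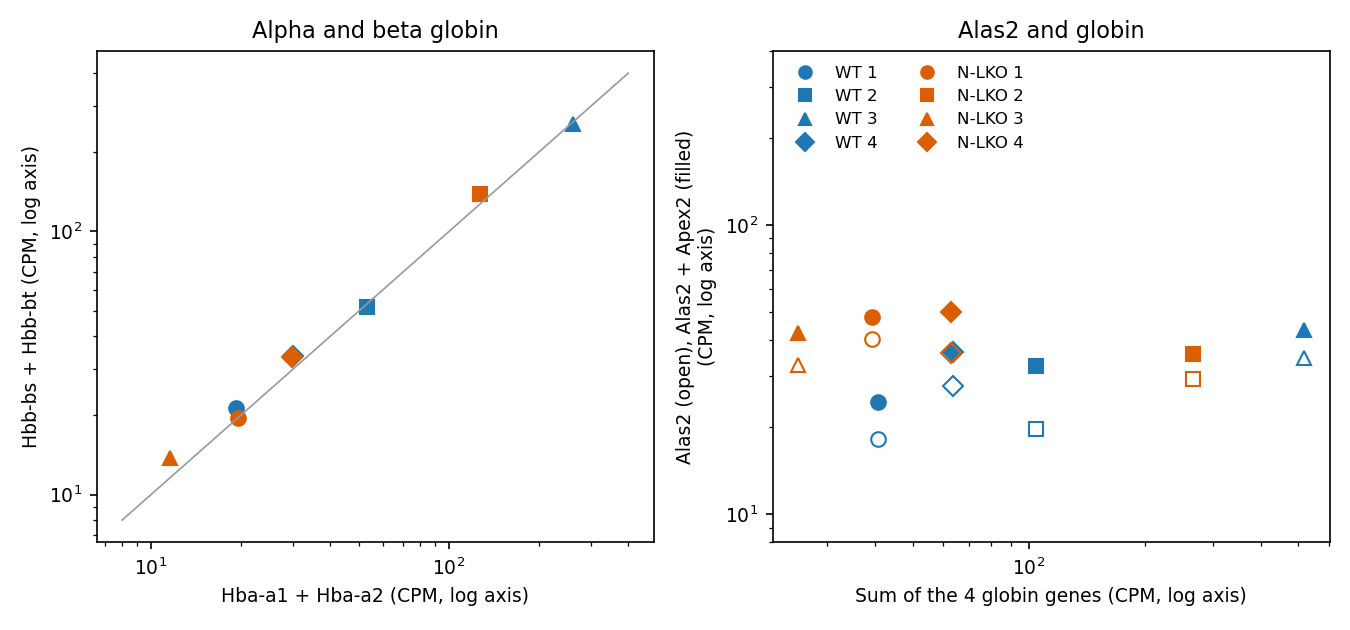
Left, summed CPM of the beta pair against that of the alpha pair in each liver on log axes, with the line of equality. Right, CPM of Alas2 (open) and of Alas2 plus Apex2 (filled) against the summed CPM of the 4 globin genes. Alpha and beta lie along the line from N-LKO 3 to WT 3, and Alas2 stays between 18.2 and 40.3 CPM over the whole range of globin.

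Per kilobase of exon, mean levels over the 8 livers were 82.3 CPM per kb for Hbb-bs and 74.2 for Hba-a2, then 24.0 for Hba-a1, 12.4 for Alas2, 11.3 for Hbb-bt and 0.0306 for Slc4a1. Ranges over livers overlapped between neighbours in this order, except for Slc4a1, whose highest liver (0.108 CPM per kb) was below the lowest value of each other gene. Hbb-bs ran from 16.2 to 293.9 CPM per kb and Hba-a2 from 13.3 to 282.6. The order among the globins also rests on the division of shared reads.

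None of the 5 genes tested passed an adjusted p of 0.05 between genotypes in edgeR, where 1.04% of all genes tested did. DESeq2, which gave no p for Hbb-bt, and limma-voom called none either. At an unadjusted p under 0.05 there was 1, Alas2, and 12.8% of all genes tested had such a p. Fitted log2 fold changes, N-LKO minus WT, were -1.02 for Hba-a1 (SE 0.869, adjusted p = 0.686), -0.93 for Hba-a2 (SE 0.869, adjusted p = 0.720), -0.81 for Hbb-bs (SE 0.841, adjusted p = 0.749) and -0.86 for Hbb-bt (SE 0.890, adjusted p = 0.750), all from edgeR. These errors are about as large as the differences. In the exact two-sided permutation test on log2 CPM, whose smallest possible p is 0.0286, p was 0.457 for Hba-a1 and Hbb-bs and 0.486 for Hba-a2 and Hbb-bt. The alpha pair summed gave a difference of -0.81 and the beta pair one of -0.73 on the log2 scale (exact permutation p = 0.486 for both).

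Single livers set the direction of the globin difference. Without WT 3 the log2 fold changes became 0.31 for Hba-a1, 0.53 for Hba-a2, 0.51 for Hbb-bs and 0.72 for Hbb-bt. In edgeR's fit all 4 thus turned from lower to higher in N-LKO. Differences of mean log2 CPM without WT 3 were nearer 0 and of mixed sign, at -0.16, 0.014, -0.0041 and 0.10. Without N-LKO 2 the fitted log2 fold changes became -2.23, -2.12, -2.01 and -2.12 (adjusted p from 0.307 to 0.352, edgeR). Without both livers they were -0.92 (SE 0.479) for Hba-a1, -0.67 (SE 0.370) for Hba-a2, -0.69 (SE 0.368) for Hbb-bs and -0.55 (SE 0.339) for Hbb-bt. The errors were then smaller, and no gene passed the test (adjusted p from 0.477 to 0.549, edgeR). In every one of these fits the count of the 5 genes called was 0.

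**Figure D3:**
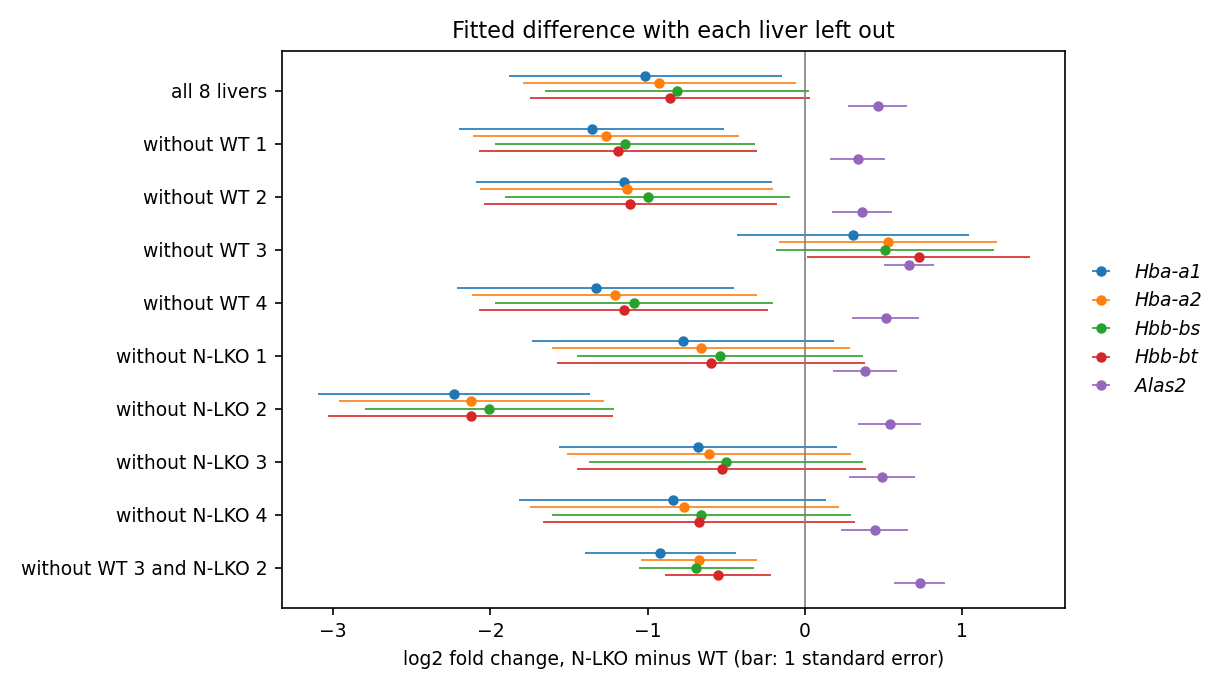
Log2 fold change of each gene, N-LKO minus WT, fitted with edgeR on all 8 livers, with each liver left out, and without both WT 3 and N-LKO 2. Bars are 1 standard error. The 4 globins lie to the right of 0 only without WT 3, and Alas2 lies between 0.34 and 0.73 in all the fits shown.

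Alas2, the enzyme that commits red cell precursors to haem, was at 18.2, 19.7, 34.8 and 27.8 CPM in WT 1 to 4. It was at 40.3, 29.4, 32.7 and 36.1 CPM in N-LKO 1 to 4. The N-LKO livers lay at the upper end of the range, and of the WT livers only WT 3 reached into it. The mean was 25.1 ± 7.70 CPM for WT and 34.6 ± 4.68 CPM for N-LKO (SD, n = 4 each). The log2 fold change was 0.46 (SE 0.189), with an unadjusted p of 0.0324 and an adjusted p of 0.336 in edgeR. The exact two-sided permutation test gave p = 0.114. A difference in Alas2 was therefore not shown at this number of livers.

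WT 3 was the highest WT liver for Alas2 too. Without it, the 4 N-LKO livers lay above the other 3 WT livers, the log2 fold change was 0.66 and the adjusted p was 0.125 (edgeR). Without both WT 3 and N-LKO 2 the values were 0.73 (SE 0.161) and 0.0975. The exact two-sided permutation test gave p = 0.0286 without WT 3, not adjusted for the number of genes. That is the smallest p that 4 against 3 livers allow, and it follows from the lack of overlap once WT 3 is left out. The share of all genes without overlap over the same livers was not computed. With each other liver left out, the exact two-sided permutation test gave p from 0.114 to 0.229. Apex2 was at 6.14 to 12.8 CPM in WT and 6.53 to 14.1 CPM in N-LKO livers, and the sum of Alas2 and Apex2, in which the division of reads plays no part, was 34.2 ± 7.91 CPM for WT and 44.2 ± 6.43 CPM for N-LKO (SD, n = 4 each). That difference of 0.39 on the log2 scale was within the spread (exact two-sided permutation test, p = 0.143).

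Alas2 did not track globin over the 8 livers. Within WT, WT 3 was the highest liver for both, whereas within N-LKO, N-LKO 2 was highest for globin and lowest for Alas2. The globin count was 14.9 times that of Alas2 in WT 3 and 9.06 times in N-LKO 2, and between 0.774 and 5.31 times in the other 6 livers. In N-LKO 3, the liver with the least globin, Alas2 was near the middle of its own range, at 32.7 CPM. Over the 8 livers Pearson's r between log2 CPM of Alas2 and the mean of the 4 globins was 0.08, given as a description over 8 libraries of unequal depth.

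Slc4a1 was hardly detected. It had 1, 5, 2 and 1 counts in WT 1 to 4 and 1, 8, 1 and 0 counts in N-LKO 1 to 4, and a count of 0 allows a level of up to 3 counts. The highest livers were WT 2 and N-LKO 2, so only for N-LKO 2 was the liver with most globin also the one with most Slc4a1. It failed the filter on low counts. With no filter, its fitted log2 fold change was 0.25 (SE 0.976, adjusted p = 0.953, edgeR), a value that depends on the prior count at this depth, and a difference was not detectable.

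The spread of the globins was unusual for these livers. The SD of log2 CPM over the 8 livers was 1.55 for Hba-a1, 1.49 for Hba-a2, 1.45 for Hbb-bs and 1.49 for Hbb-bt, and the median over all genes tested was 0.21. Each globin stood at percentile 99.8 of the genes tested by this measure, whereas Alas2, with an SD of 0.41, stood at percentile 81.8. Within WT livers, WT 3 held 60.8% to 72.3% of the sum of squares around the group mean of each globin, and within N-LKO livers N-LKO 2 held 61.9% to 65.3%. For Hbb-bs, the SD fell from 1.55 to 0.66 in WT livers without WT 3 and from 1.46 to 0.64 in N-LKO livers without N-LKO 2. Over the other 6 livers the SD of the globins was still between 0.58 (Hbb-bt) and 0.88 (Hba-a1). How this compares with other genes over the same 6 livers was not computed. Alas2 had its largest shares in WT 3 (47.5%) and N-LKO 1 (46.3%), and Slc4a1 in WT 2 (64.1%) and N-LKO 2 (69.7%).

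The mean log2 CPM over the 6 genes, which gives each the same weight, was 2.27, 3.36, 4.94 and 2.74 in WT 1 to 4. It was 2.45, 4.47, 1.90 and 2.71 in N-LKO 1 to 4. The order of the livers was that of globin but for WT 1 and N-LKO 1, which changed places. The groups differed by -0.44 on the log2 scale, against SDs of 1.16 in WT and 1.11 in N-LKO livers. Without WT 3 the difference was 0.09, and without N-LKO 2 it was -0.98.

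Other erythroid genes were read from 5 lists, together 76 names with the 6 genes included. Of these, 51 had a value, 41 were tested and 0 were called in edgeR, with 7 at an unadjusted p under 0.05. Over all genes tested, 1.04% were called and 12.8% had such an unadjusted p. DESeq2, which called 371 genes in all, called 1 gene in each of the lists of red cell membrane genes and of red cell enzymes. Of these 5 lists limma-voom called none, with 126 genes called in all. In edgeR, 1 red cell membrane gene was called without N-LKO 1 and with the replicate number in the titles as a block, and 1 red cell enzyme gene without WT 1. Of the 41 genes, 14 had a positive log2 fold change and the median was -0.03, against a median of -0.0033 over all genes tested. In the list of globins and their chaperone, 4 of 13 names had a value, and these were the 4 globin genes above. Ahsp, the alpha-globin chaperone, and the embryonic globins thus had none. No value is given here for the erythroid factor Gata1.

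In the haem synthesis list, 12 of 12 genes were tested, 0 were called and the median log2 fold change was -0.05. The best expressed were Cpox, Alas1 and Fech, which hepatocytes also use. Alas1, the enzyme for haem in liver cells, was at 213.0 ± 54.8 CPM for WT and 199.95 ± 58.1 CPM for N-LKO (SD, n = 4 each). Fech, which places iron in haem, was at 100.2 ± 5.01 and 106.1 ± 6.33 CPM (SD, n = 4 each). Summed CPM of this list ran from 630.9 to 771.2 over the 8 livers, a 1.22-fold range, and WT 3 was the second highest.

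Of the red cell membrane and surface list, 13 of 21 genes had a value, 7 were tested and 0 were called, with a median log2 fold change of -0.03. Epb41, a membrane skeleton protein also made outside red cells, led this list at 193.6 ± 15.2 CPM for WT and 228.0 ± 17.8 CPM for N-LKO (SD, n = 4 each) (adjusted p = 0.261, edgeR). Cd24a, a surface antigen of several cell types, was at 2.46, 2.38, 4.69 and 3.59 CPM in WT and 4.37, 9.77, 12.5 and 6.25 CPM in N-LKO livers (adjusted p = 0.105, edgeR). Its highest liver was N-LKO 3, the one with the least globin. Gypc, glycophorin C, was at 5.06 ± 0.821 and 4.11 ± 0.888 CPM (SD, n = 4 each), and its r to the globin mean over the 8 livers was 0.80. That was the highest r among the other erythroid genes with a mean CPM of 1 or more, and many had a negative r. The lowest was -0.66 for Mkrn1, with -0.57 for Fech and -0.48 for Epb41. The list's sum was 255.6 CPM in WT 3, the second lowest liver.

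The list of red cell enzymes and late reticulocyte genes had 13 of 18 with a value, 12 tested, 0 called and a median log2 fold change of -0.01. Bpgm, which makes the 2,3-bisphosphoglycerate that tunes oxygen binding, was at 14.6, 13.8, 17.6 and 15.7 CPM in WT and 14.9, 19.3, 14.1 and 15.5 CPM in N-LKO livers. WT 3 and N-LKO 2 were its highest livers in each genotype, by far less than for globin (r of 0.78 over the 8 livers). Blvrb, a biliverdin reductase, had its highest level in WT 3 (40.9 CPM) but not in N-LKO 2 (31.4 CPM). Rsad2, an interferon-induced gene in this list, was at 20.1 to 37.3 CPM in WT and 14.2 to 19.6 CPM in N-LKO livers without overlap, as were 7.52% of all genes tested, and its adjusted p was 0.0866 (edgeR). Erythroid transcription factors and progenitor genes had 9 of 12 with a value, 6 tested, 0 called and a median log2 fold change of -0.06. Klf1, the erythroid factor that switches on Hbb genes, was at 0.497 to 2.31 CPM and was not highest in WT 3 (0.951 CPM) or N-LKO 2 (0.792 CPM). Tfrc, the transferrin receptor, was at 33.3 ± 11.5 and 43.4 ± 7.70 CPM (SD, n = 4 each). Without the 6 genes, the sum of all 5 lists ran over a 1.16-fold range. Its best expressed genes were Cpox, Alas1 and Epb41, also made outside red cells, so this sum says little of erythroid RNA.

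No marker list of the other cells of blood had WT 3 and N-LKO 2 as its 2 highest livers. The platelet list, with 6 of 12 genes having a value, summed to 10.1 to 11.8 CPM in WT and 7.94 to 10.8 CPM in N-LKO livers, with 10.8 in WT 3 and 10.6 in N-LKO 2. Its top gene Clec1b, at 8.78 ± 0.863 and 8.06 ± 1.39 CPM (SD, n = 4 each), is also expressed by sinusoidal endothelium. Neutrophil genes (8 of 13 with a value) summed to 1.97 to 6.41 CPM in WT and 3.52 to 4.82 CPM in N-LKO livers, with WT 3 the lowest of all and N-LKO 2 the highest N-LKO liver. T and NK cell genes (12 of 12) summed to 3.80 to 6.07 CPM in WT and 4.22 to 5.61 CPM in N-LKO livers, with WT 3 and N-LKO 2 the lowest of their groups. B cell genes (10 of 10) summed to 24.7 to 33.6 CPM in WT and 29.1 to 48.0 CPM in N-LKO livers, with WT 3 again the lowest and N-LKO 2 second of the N-LKO livers. The median log2 fold changes of these 4 lists were -0.21, 0.41, -0.01 and 0.52 over 2, 2, 2 and 5 genes tested, and edgeR called 0 of them. At an unadjusted p under 0.05 in edgeR there were 3 B cell genes, all higher in N-LKO livers, and 0 in the other lists. Over all genes tested, 12.8% had such a p. DESeq2 called 1 B cell gene, and edgeR called 1 neutrophil gene without WT 1.

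**Figure D4:**
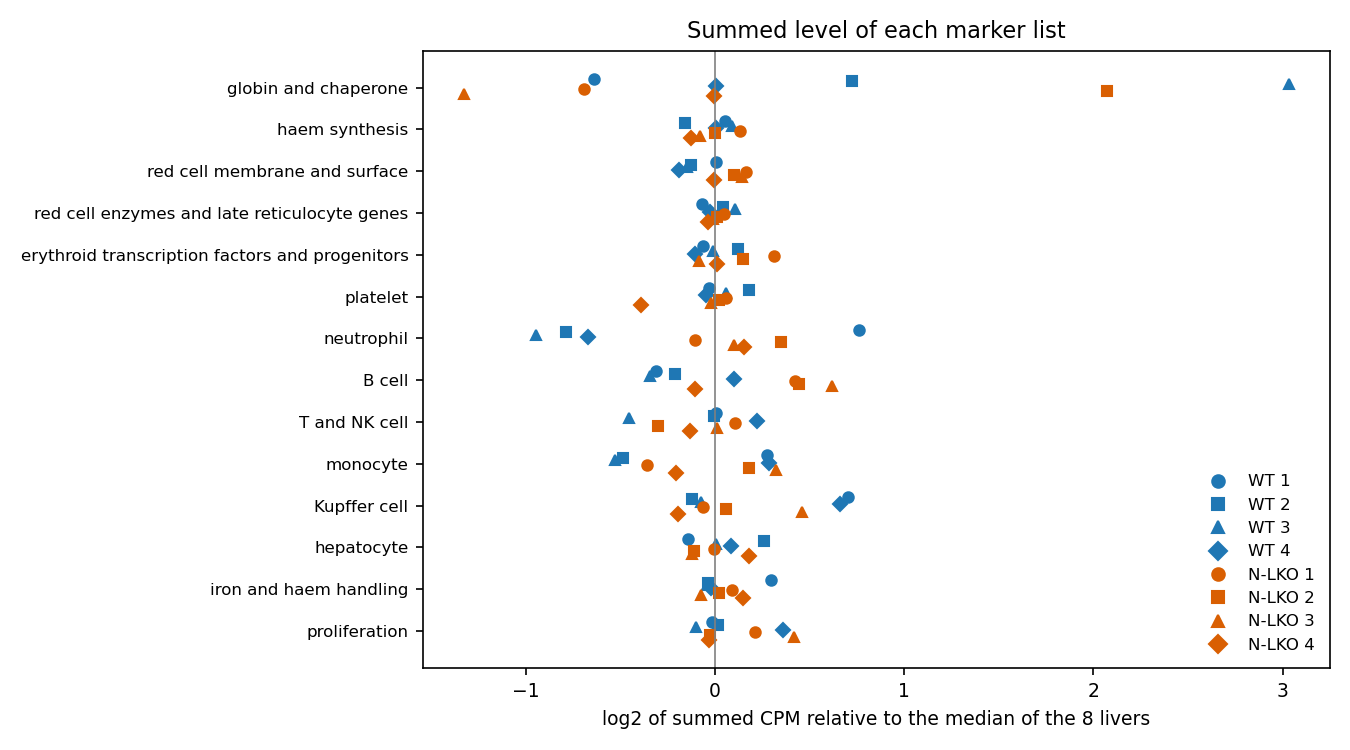
Summed CPM of each list in each liver, as log2 relative to the median of the 8 livers, with WT in blue and N-LKO in orange. The globin list spreads over 20.5-fold with WT 3 and N-LKO 2 at the right, and no other list has these livers as its 2 highest.

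Of the 14 lists, those of Kupffer cells and monocytes held the only 2 called genes in edgeR. Cd163, the Kupffer cell receptor that takes up haemoglobin bound to haptoglobin, was at 23.4, 10.5, 11.5 and 17.6 CPM in WT 1 to 4 and at 5.44, 6.34, 3.65 and 5.36 CPM in N-LKO 1 to 4. It was lower after the deletion (log2 fold change -1.60, SE 0.261, adjusted p = 0.0167, edgeR), and stayed so without WT 3 and N-LKO 2 (-1.83, adjusted p = 0.0319). Without WT 4 or without N-LKO 3 it no longer passed the test (adjusted p = 0.0535 and 0.0597). The other 9 of the 10 Kupffer cell genes were not called, but all 10 had a negative log2 fold change, with a median of -0.17. At an unadjusted p under 0.05 in edgeR there were 2, Cd163 included, and 12.8% of all genes tested had such a p. The list summed to 116.7 to 206.6 CPM in WT and 110.5 to 174.6 CPM in N-LKO livers. Cx3cr1, a chemokine receptor of monocytes, was at 0.374, 0, 0.254 and 0.386 CPM in WT and 0.964, 2.97, 3.32 and 1.15 CPM in N-LKO livers. It was higher in N-LKO livers (log2 fold change 2.97, adjusted p = 0.0499, edgeR), a call at the threshold that was lost without WT 3 (adjusted p = 0.119), without N-LKO 2 (adjusted p = 0.0923), without 5 of the other 6 livers in turn, and in limma-voom (adjusted p = 0.117). Monocyte genes as a list (7 of 7 with a value, 4 tested, 1 called) summed to 18.1 to 31.9 CPM in WT and 20.4 to 32.6 CPM in N-LKO livers, with a median log2 fold change of 0.18.

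Iron and haem handling genes did not set WT 3 and N-LKO 2 apart. Of 27 listed, 23 had a value and were tested, 0 were called, and 1 had an unadjusted p under 0.05 (median log2 fold change 0.07). DESeq2 and limma-voom called none. Haptoglobin (Hp), which binds free haemoglobin in plasma, was at 1845 ± 362.0 CPM for WT and 1886 ± 287.1 CPM for N-LKO (SD, n = 4 each). Haemopexin (Hpx), which binds free haem, was at 1394 ± 343.3 and 1413 ± 112.1 CPM, and the ferritin heavy chain gene Fth1 at 1172 ± 48.6 and 1075 ± 64.6 CPM (SD, n = 4 each). WT 3 had the lowest Hp of the WT livers, at 1523 CPM. Hepatocyte genes (8 of 8) had 0 called and a median of -0.05, with sums from 74904 to 98930 CPM, and proliferation genes (6 of 6, 5 tested) had 0 called and a median of -0.01, with sums from 5.90 to 8.43 CPM.

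The genes whose pattern over the 8 livers was most like the mean of the 6 were named by Pearson's r on log2 CPM among 13165 other genes whose mean CPM was 1 or more, as a description with no p. The 15 highest had r from 0.902 to 0.949 and were Gm7329, Actr2, Gm2011, Ccdc25, Hsp90ab1, Ube2n, Msl1, Gm22146, Tmem33, Wfdc2, A530017D24Rik, Gm12346, Usp36, R3hcc1 and E2f5. None of them is in the erythroid lists. They followed the order of livers to differing degrees, with Spearman's rho from 0.74 for E2f5 to 1 for Actr2. Gm7329, Tmem33, Usp36 and R3hcc1 were highest in N-LKO 2, not in WT 3. The steps of these genes were much smaller, from 1.18-fold for Msl1 to 4.35-fold for Wfdc2 between the highest and lowest liver. Actr2, a subunit of the Arp2/3 complex that branches actin, was at 119.5 CPM in N-LKO 3 and 147.6 CPM in WT 3. Hsp90ab1, a cytosolic chaperone, was at 718.8 CPM in N-LKO 3 and 1034 CPM in WT 3. Without WT 3 and N-LKO 2, r for these genes ranged from 0.613 to 0.984, and only 1 of the 15 remained among the 15 highest.

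The calls for all genes were also read with the 6 genes taken into account. In all, 148 genes were called, 117 higher (0.823%) and 31 lower (0.218%) in N-LKO livers. With library totals and scaling computed without the 6 genes there were again 148, the same genes. The globins made up at most 0.0530% of a library, so this change could hardly move the scaling and tests little. With the mean of the 6 genes as a covariate beside genotype 121 were called, of which 113 were among the 148. That mean gives Alas2 and Slc4a1 the same weight as each globin, so it is not globin content alone. Without WT 3 and N-LKO 2 there were 101, of which 76 were shared, a fit that also has 2 livers fewer.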

How the data were processed

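After rRNA removal, RNA of 4 WT and 4 N-LKO livers (CD) had been sequenced. The study's methods name quality trimming and alignment with TopHat2, and the submitters' processing notes name STAR, Partek and mm9. The deposited coordinates are those of GRCm38, not mm9. The methods name cuffdiff for transcript abundances. Whether it made the deposited counts, with which annotation and whether strand was used are not given in the sources used here, and the methods give a cycle number and a read length that differ. What the authors deposited are expected counts, estimates with decimals, not scaled. Of the 19642 genes, 52.3% held decimals and the smallest sum over livers was 10.

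Counts were rounded, filtered with filterByExpr (minimum count 10, minimum total 15), TMM scaled and fitted by edgeR 4.0.16 in R 4.3.3 (glmQLFit, glmQLFTest), with genotype as the only term. Genes were called at a Benjamini-Hochberg adjusted p under 0.05 over 14214 genes. The SE is the size of the log2 fold change over the square root of F. The prior count for log2 CPM was 2. For single values, exact permutation tests (two-sided, 70 splits) were used. The tests were run on simulated data first.

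The genes, the 14 lists and the tests were chosen with earlier results of these data known. The rule for named genes was the 6 genes, Nus1, each called gene of a list with its 3 best expressed (6 for erythroid lists), of which a part is printed, and the 15 genes most like the 6. Apex2 was added after values were seen. Depth of 14688404 to 18585412 counts limits genes near 3 counts. Replicate numbers do not pair livers: deviations of same-numbered livers correlated from -0.0853 to 0.0625 by title and from -0.0092 to 0.166 by library name. No libraries were alike within sampling noise (chi-square per degree of freedom 11.8 to 68.6 over 28 pairs). Alternatives were RLE scaling, library totals, scaling without the 6 genes, other filters, DESeq2 1.42.0, limma-voom 3.58.1, robust dispersion, replicate blocks, a prior count of 0.5, a covariate and each liver left out.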

Additional observations from a re-analysis of the deposited data

Results flagged for a closer look

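A value was marked where the highest or lowest of the 4 livers of a genotype lay far from the nearest other (Dixon's gap over range, at its critical value for 95%). Of 204 groups examined, 19 were marked, and chance alone would mark about 10.2. Many of these values are not independent of each other.

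Most marks concern the globins. In WT 3, Hba-a2 was at 188.5 CPM (other WT livers 13.6 to 34.6), Hbb-bs at 225.7 CPM (18.9 to 47.3) and Hbb-bt at 30.9 CPM (2.51 to 4.31). The summed globin level there was 518.1 CPM, and its share of the library 0.0530%. In N-LKO 2, Hba-a1 was at 35.0 CPM (other N-LKO livers 2.65 to 7.74), Hba-a2 at 92.0 CPM (8.89 to 21.9), Hbb-bs at 123.5 CPM (12.5 to 30.1) and Hbb-bt at 15.6 CPM (1.26 to 3.26). There the sum was 266.1 CPM, the share 0.0272%, the ratio of globin to Alas2 counts 9.06 (others 0.774 to 1.75) and Slc4a1 0.528 CPM (others 0 to 0.0664).

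In WT 1, Nus1 was the lowest of the WT livers at 82.0 CPM (others 89.7 to 90.5). S100a9 was the highest there at 2.03 CPM (0.331 to 0.444), as were the sums of the neutrophil list at 6.41 CPM (1.97 to 2.37) and of the iron and haem handling list at 7715 CPM (6094 to 6185). Jchain was lowest in N-LKO 4 at 7.33 CPM (10.4 to 10.7 in the other N-LKO livers). Ccdc25, among the genes most like the 6, was highest in WT 3 at 40.8 CPM (33.8 to 34.9).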

How the results depend on the processing

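No alternative called any of the 5 genes tested. The globin log2 fold changes turned positive without WT 3 alone (0.31 for Hba-a1, 0.53 for Hba-a2, 0.51 for Hbb-bs and 0.72 for Hbb-bt), and with each liver left out in turn they ran from -2.23 to 0.31, -2.12 to 0.53, -2.01 to 0.51 and -2.12 to 0.72. The log2 CPM differences ran from -1.44 to 0.014 for Hba-a2 and from -1.39 to 0.10 for Hbb-bt, positive only without WT 3. For Hba-a1 and Hbb-bs these differences stayed negative, from -1.60 to -0.16 and from -1.41 to -0.0041. Apex2 ran from -0.17 to 0.29, negative without WT 1 (-0.07) and without N-LKO 4. In the settings with all livers, Hba-a1 stayed between -1.04 and -0.64 and Alas2 between 0.42 and 0.51.

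The count of called genes, 148, became 98 with at least 10 counts in every liver and 371 with DESeq2, and 71 to 173 with each liver left out (83 without WT 2, 91 without WT 3, 71 without WT 4 and 76 without N-LKO 3). Called genes of the 14 lists, 2 in all, became 1 with library totals, with at least 10 counts in every liver, with limma-voom, with robust dispersion and without WT 3 and N-LKO 2, 6 with DESeq2, and 0 to 3 with each liver left out (0 without WT 4 or N-LKO 3). The cause was not tested. Of the 15 genes most like the 6, 1 remained without WT 3 and N-LKO 2, 8 remained with group means removed and 11 remained for likeness to the 4 globins.

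With the replicate number in the titles as a block, 131 genes were called (104 of the 148), and with the library number 113 (96 of the 148). With the title block the list total stayed at 2, but the monocyte list went from 1 to 0 and the red cell membrane list from 0 to 1. Under these blocks Hba-a1 was at -0.64 and -0.95 and Alas2 at 0.50 and 0.50, with adjusted p of 0.310 and 0.194 for Alas2. Leaving out both high-globin livers and likeness to the globins alone were chosen after seeing the data. Slc4a1, at 0 to 8 counts per liver, is limited by depth in each setting.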
